A study of Mus musculus with 4 samples.

Results

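Expression of 10 rapidly inducible transcription factor genes, *Klf4*, *Klf2*, *Klf6*, *Fos*, *Fosb*, *Jun*, *Junb*, *Egr1*, *Atf3* and *Ier2*, was compared across cell lineages and genotypes in single-cell RNA-seq of fibrotic mouse lungs. The genes were chosen by name and are 10 of the 32286 genes in the files. All 10 had counts in every lineage and passed the filter on low counts in the comparisons of lineages, genotypes and library kinds. The data came from the lungs of adult mice, 2 wild-type (WT) and 2 Tubb3-/-, all of which had received bleomycin (0.8 U/kg into the trachea), a drug that injures the lung and is followed by fibrosis, 14 days before. Tubb3-/- mice carry *Cre* in both copies of *Tubb3*, a tubulin gene best known from neurons, so the gene is disrupted in every cell throughout life. Each mouse gave 1 library of whole lung cells, depleted only of red blood cells, and 1 library enriched for mural cells. For the second kind, endothelial, immune, epithelial and red blood cells were removed by their surface proteins, and MCAM+ PDGFRA- and MCAM- cells were sorted and mixed. The 4 mice of a kind were tagged and run as 1 pool, so the 8 libraries came from 2 pools and library kind cannot be told apart from pool. No uninjured lungs and no cells taken without enzymatic digestion were analysed here.

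These genes belong to the immediate-early response, in which signals from growth factors, stretch or stress switch on transcription within minutes and without new protein synthesis. FOS and JUN proteins pair to form the AP-1 factor, EGR1 and the KLF proteins bind GC-rich promoters through zinc fingers, and ATF3 pairs with JUN or represses its targets. The same genes are known to be induced while tissue is digested with enzymes. KLF2 and KLF4 have a second role in blood vessels, where they are kept on in endothelium by laminar flow, and KLF4 represses contractile genes in cultured smooth muscle cells. A level of *Klf4* in dissociated cells can therefore hold both a cell type's own expression and a response to handling, and the question asked of these data was how far *Klf4* moved with the other genes in each lineage and mouse.

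Promoters of the 2 vascular KLF genes and of the 2 founding AP-1 genes are shown to compare the sequence next to their start sites. Each is the 300 bases from 250 before to 50 after the start in RefSeq (GRCm38.p6), printed 5′ to 3′ on the gene's strand. Capitals mark TGACG on either strand, the core of the site of CREB and ATF factors, and the binding motif of MEF2 factors.
Klf4, chr4:55532426-55532725, minus strand: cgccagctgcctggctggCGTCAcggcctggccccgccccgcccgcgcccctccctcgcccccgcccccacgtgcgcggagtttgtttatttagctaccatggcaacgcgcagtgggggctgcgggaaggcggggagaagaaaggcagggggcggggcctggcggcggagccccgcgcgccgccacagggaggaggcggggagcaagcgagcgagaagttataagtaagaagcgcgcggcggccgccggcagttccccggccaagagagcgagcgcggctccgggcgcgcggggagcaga
Klf2, chr8:72318812-72319111, plus strand: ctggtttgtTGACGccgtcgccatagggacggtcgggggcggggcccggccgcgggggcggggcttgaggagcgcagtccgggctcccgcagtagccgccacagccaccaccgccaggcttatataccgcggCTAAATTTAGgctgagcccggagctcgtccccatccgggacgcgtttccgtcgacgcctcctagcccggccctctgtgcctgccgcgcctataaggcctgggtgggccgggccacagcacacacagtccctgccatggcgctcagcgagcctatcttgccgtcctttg
Fos, chr12:85473640-85473939, plus strand: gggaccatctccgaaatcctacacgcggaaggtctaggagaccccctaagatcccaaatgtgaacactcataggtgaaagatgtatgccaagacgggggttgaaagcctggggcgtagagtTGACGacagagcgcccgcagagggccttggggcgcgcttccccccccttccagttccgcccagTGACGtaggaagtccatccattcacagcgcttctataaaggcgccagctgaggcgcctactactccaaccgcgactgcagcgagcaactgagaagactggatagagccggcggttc
Jun, chr4:95052173-95052472, minus strand: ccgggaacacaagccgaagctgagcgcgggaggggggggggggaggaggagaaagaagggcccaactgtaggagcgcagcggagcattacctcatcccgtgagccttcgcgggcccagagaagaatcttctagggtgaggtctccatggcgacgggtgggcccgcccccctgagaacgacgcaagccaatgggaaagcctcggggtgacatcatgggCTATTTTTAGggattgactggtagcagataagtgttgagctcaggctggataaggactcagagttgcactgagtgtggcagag
*Fos* held TGACG at 129 and 66 bases before its start, *Klf2* at 241 and *Klf4* at 232 on the other strand. Among the 8 genes whose window was used, TGACG was found in 6 (*Klf4*, *Klf2*, *Fos*, *Fosb*, *Junb* and *Atf3*), against 20.8% of 32851 promoters of this length. The MEF2 motif was found in 3, *Klf2*, *Jun* and *Atf3*, against 0.557% of all promoters, and *Klf4* did not hold it in this window. The full CRE TGACGTCA (1.79% of all promoters, a sequence that contains TGACG), the AP-1 site TGANTCA (7.81%) and the CArG box of serum response factor (1.63%) were found in 0 of the 8. *Egr1* and *Ier2* were not used here for sequence. A match is a description of the letters in the window and not of binding.

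In mm10, with gene positions from GENCODE vM21, *Klf4* (ENSMUSG00000003032) lies at chr4:55527143-55532466, *Klf2* (ENSMUSG00000055148) at chr8:72319033-72321656 and *Klf6* (ENSMUSG00000000078) at chr13:5861482-5870394. *Fos* (ENSMUSG00000021250) lies at chr12:85473890-85477273, *Fosb* (ENSMUSG00000003545) at chr7:19302696-19310051, *Jun* (ENSMUSG00000052684) at chr4:95049034-95052222 and *Junb* (ENSMUSG00000052837) at chr8:84974484-84978718. *Atf3* (ENSMUSG00000026628) lies at chr1:191170296-191218039 and *Ier2* (ENSMUSG00000053560) at chr8:84661331-84662852, and *Egr1* is ENSMUSG00000038418. *Jun* overlaps its antisense gene *Junos*, *Junb* overlaps *Prdx2* on the other strand, and *Atf3* overlaps a small RNA gene. Whether the counting used strand is not given in the sources used here, so their counts are uncertain to that extent.

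The files held 32121 cells, of which 30860 were kept. A cell was given a lineage when it had at least 1 UMI (unique molecular identifier, a counted RNA molecule) of *Ptprc* (immune), *Cdh5* (endothelial), *Epcam* (epithelial), *Higd1b* or *Myh11* (mural) or *Pdgfra* (fibroblast), and of genes of no other lineage. This left 17506 cells (56.7%), namely 4546 immune, 2407 endothelial, 417 epithelial, 5589 mural and 4547 fibroblast cells. Another 12261 cells (39.7%) matched several lineages and 1093 (3.54%) matched none, and both were left out. UMIs were summed per library and lineage and are given as CPM, UMIs of a gene per 1000000 gene UMIs of that sum. A lower CPM in a sum can come from fewer cells with the RNA or from less RNA per cell. In the whole-cell libraries the sums held 971 to 1227 immune, 319 to 609 endothelial, 42 to 72 epithelial, 91 to 152 mural and 292 to 416 fibroblast cells per mouse. In the mural cell-enriched libraries they held 910 to 1449 mural and 731 to 860 fibroblast cells per mouse. With the gate genes left out, all 6 immune, 4 endothelial, 5 epithelial, 5 mural and 5 fibroblast markers were higher in their own lineage in the whole-cell libraries. The gates were not clean, since 3 of the 5 fibroblast markers were also higher in mural cells than in the mean of the other lineages. The disrupted gene, *Tubb3*, was low throughout, with 0.868 and 1.93 CPM in WT and 0.262 and 0.321 CPM in Tubb3-/- whole cells, and 3.67 and 5.49 CPM in WT and 0.680 and 0.789 CPM in Tubb3-/- enriched cells. In both genotypes replicate 1 had little *Xist* (17.6 to 22.6 CPM) and replicate 2 had much (632 to 649 CPM), so the mice differ in sex in the same way in both. Between libraries of different pools 59 cell barcodes were shared in all, and 0 within a pool.

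*Klf4* was highest in endothelial cells. In the whole-cell libraries it was at 702 and 1057 CPM in WT and 810 and 860 CPM in Tubb3-/- endothelial cells, a mean of 857 ± 148 CPM (SD, n = 4 mice). Fibroblasts had 415 ± 143 CPM (SD, n = 4), mural cells 301 ± 61.3 CPM (SD, n = 4), immune cells 267 ± 38.3 CPM (SD, n = 4) and epithelial cells 98.7 ± 29.4 CPM (SD, n = 4). The endothelial values of all 4 mice lay above every fibroblast value, and the epithelial values lay below every immune value. Fibroblast values overlapped with mural values, and mural values with immune values. Each lineage was tested against the mean of the other 4 with mouse as a block, by the quasi-likelihood test of edgeR, and p-values were adjusted over all genes tested (Benjamini-Hochberg). *Klf4* was 1.72 higher on the log2 scale in endothelial cells (SE 0.13, adjusted p = 2.19e-09) and 0.65 higher in fibroblasts (SE 0.14, adjusted p = 0.000733). It was lower in epithelial cells by a log2 difference of -2.12 (SE 0.18, adjusted p = 7.54e-09). Mural (log2 difference -0.14, SE 0.15, adjusted p = 0.487) and immune cells (-0.11, SE 0.15, adjusted p = 0.510) did not pass.

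*Klf2*, the other flow-responsive KLF gene, had the same highest and lowest lineage. It was at 1049 and 1870.1 CPM in WT and 1532 and 1594 CPM in Tubb3-/- endothelial cells, against 648 ± 220.2 CPM (SD, n = 4) in mural cells, 484 ± 133 CPM (SD, n = 4) in fibroblasts, 332 ± 27.4 CPM (SD, n = 4) in immune cells and 121 ± 51.1 CPM (SD, n = 4) in epithelial cells. Only the mural and fibroblast values overlapped among neighbours in this order. Its log2 difference was 2.05 in endothelial cells (SE 0.18, adjusted p = 1.36e-08), 0.58 in mural cells (SE 0.20, adjusted p = 0.0243) and -2.45 in epithelial cells (SE 0.25, adjusted p = 9.69e-08). *Klf6*, a broadly expressed KLF gene induced by injury, was much flatter. Its mean ranged from 256 CPM in endothelial cells to 408 CPM in mural cells, 1.59-fold, and each neighbouring pair of lineages overlapped. It was lower in endothelial cells (log2 difference -0.62, SE 0.11, adjusted p = 8.86e-05). The range of the means was 8.69-fold for *Klf4* and 12.5-fold for *Klf2*.

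The AP-1 genes were highest in mural cells or fibroblasts. *Fos* was at 3970.1 and 4748 CPM in WT and 2908 and 3487 CPM in Tubb3-/- mural cells, above the 1842 to 2886 CPM of fibroblasts, while immune cells had 599.9 to 816 CPM. Its log2 difference was 1.47 in mural cells (SE 0.12, adjusted p = 9.02e-09) and 0.80 in fibroblasts (SE 0.13, adjusted p = 2.39e-05). *Fosb* had 938 ± 260.5 CPM (SD, n = 4) in mural cells and 861 ± 346 CPM (SD, n = 4) in fibroblasts, which overlapped. *Jun* was at 1962 ± 420.5 CPM (SD, n = 4) in fibroblasts and 298 ± 33.9 CPM (SD, n = 4) in immune cells, with a log2 difference of 1.23 in fibroblasts (SE 0.11, adjusted p = 2.07e-08) and -2.13 in immune cells (SE 0.14, adjusted p = 9.91e-11). *Jun* overlapped between fibroblasts, endothelial cells and mural cells. *Junb* ranged less, from 591 ± 98.2 CPM (SD, n = 4) in epithelial cells to 2235 ± 612 CPM (SD, n = 4) in fibroblasts, and immune cells (1343 ± 52.7 CPM, SD, n = 4) were not at its low end.

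*Egr1*, a zinc finger factor downstream of growth factor signals, had the widest range after *Klf2*. It was at 1683 and 2111 CPM in WT and 1281 and 1313 CPM in Tubb3-/- mural cells, against 129 ± 19.8 CPM (SD, n = 4) in immune cells, a 12.4-fold range of means. Its log2 difference was 1.54 in mural cells (SE 0.13, adjusted p = 1.81e-08), 1.38 in fibroblasts (SE 0.13, adjusted p = 5.21e-08) and -2.73 in immune cells (SE 0.18, adjusted p = 7.71e-11). *Atf3*, a stress-induced factor, was at 896 ± 266 CPM (SD, n = 4) in mural cells and passed the test as higher only there among the 5 lineages. *Ier2*, a small nuclear protein of the immediate-early response, was highest in endothelial cells (780.5 ± 131 CPM, SD, n = 4) and fibroblasts (682 ± 111 CPM, SD, n = 4), which overlapped. The plot of levels by lineage shows the KLF pair and *Ier2* peaking in endothelial cells and the other 6 genes besides *Klf6* in mural cells or fibroblasts.

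**Figure D1:**
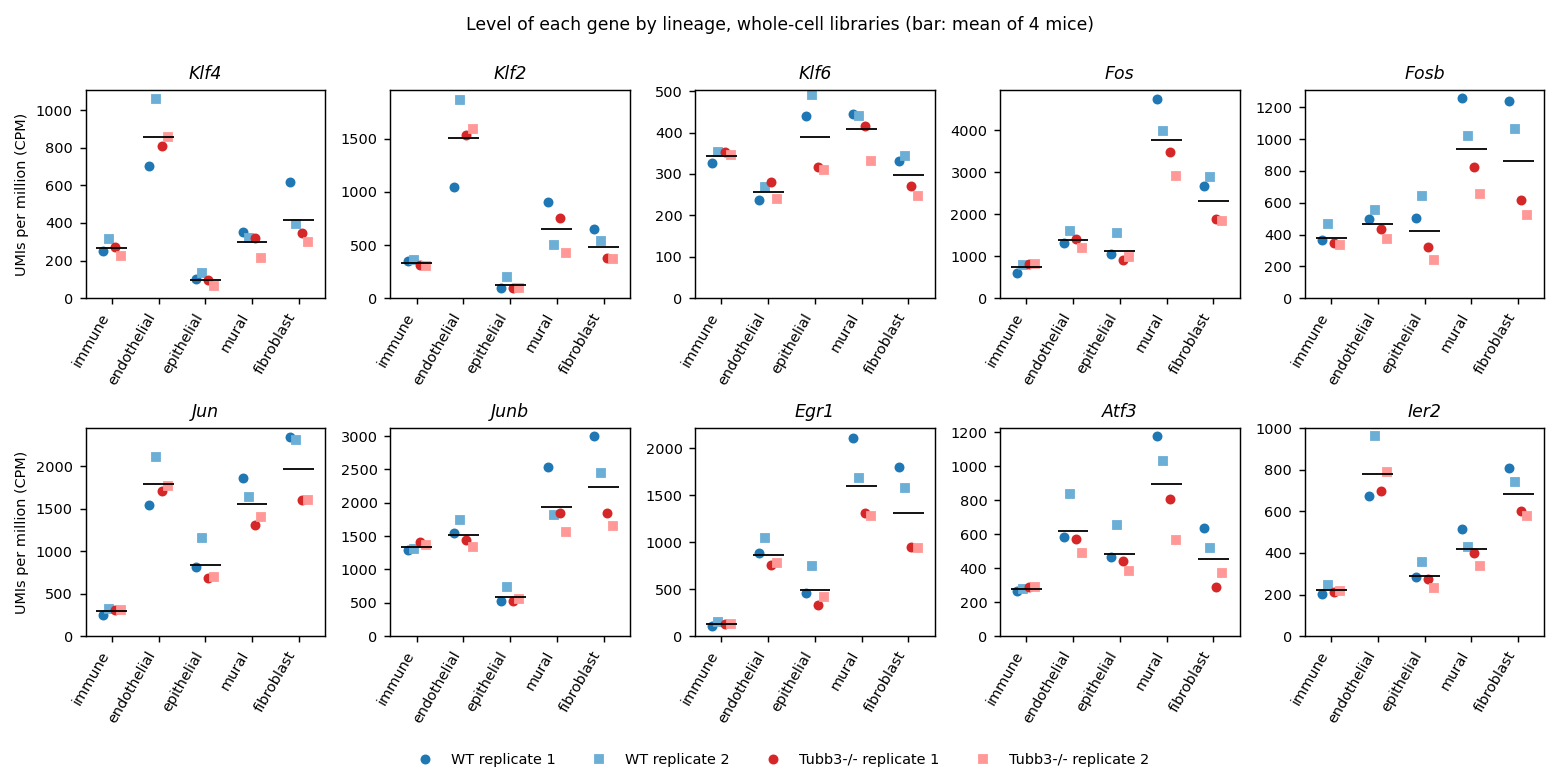
CPM of each of the 10 genes (y axis, linear from 0, own scale per panel) in the 5 lineages (x axis) of the whole-cell libraries. Each point is 1 mouse (blue WT, red Tubb3-/-; circles replicate 1, squares replicate 2) and the bar is the mean of 4 mice. *Klf4* lies between 702 and 1057 CPM in endothelial cells and at 620.3 CPM or less elsewhere, whereas *Fos* lies between 2908 and 4748 CPM in mural cells.

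In each lineage the members called were read against all 14832 genes tested. Of the 10 members, 8 were higher in mural cells, where 22.4% of all genes were higher, and 0 were lower (23.1% of all genes). In fibroblasts 7 were higher (30.7% of all genes) and 0 lower (26.1%). In endothelial cells 5 were higher (28.5%) and 3 were lower (31.4%), the latter being *Klf6*, *Fos* and *Fosb*. In immune cells 0 were higher (36.9%) and 6 were lower (36.4%). In epithelial cells 0 were higher (26.6%) and 8 were lower (30.8%). Of the 18 other immediate-early genes, 12 were higher in mural cells, 14 in fibroblasts, 6 in endothelial cells, 10 in immune cells and 0 in epithelial cells, where all 18 were lower. *Ier3* (log2 difference 2.70, adjusted p = 5.64e-13) and *Socs3* (2.10, adjusted p = 2.01e-10) led the endothelial cells, *Cebpd* (2.43, adjusted p = 7.03e-12) the fibroblasts and *Gadd45g* (1.80, adjusted p = 3.75e-09) the mural cells. Of the 12 heat shock genes 5 were higher and 0 lower in mural cells, with *Hspb1*, a small chaperone abundant in muscle, in front (2.34, adjusted p = 2.68e-10), and 2 were higher and 8 lower in immune cells. Among the 11 other KLF genes that could be tested, 8 were higher in endothelial cells, led by *Klf7* (2.69, adjusted p = 1.46e-16) and *Klf3* (2.15, adjusted p = 1.84e-14). The 4 endothelial genes under KLF2 and KLF4 that were tested, among them *S1pr1* (6.07, adjusted p = 1.49e-18), were all higher in endothelial cells, and the 5 smooth muscle genes, among them *Cnn1* and *Myocd*, were all higher in mural cells. Both lists name genes of the gated cell types, so this was largely set by the gates and does not measure KLF activity.

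To ask whether *Klf4*, *Klf2* and *Klf6* moved with the response from cell to cell, cells were thinned at random to 2000 UMIs each. Cells with fewer than 2000 UMIs were left out here and in the bins below. In the whole-cell library of WT replicate 1 these were 20 endothelial cells, with 299 used. The UMIs of the other 7 members were then summed per cell. The cells of each library and lineage were ranked by this sum and cut into 3 equal parts, and the top part was compared with the bottom part across the 4 mice. A lineage here is a broad gate that can mix cell types, so the parts may also differ in their mix. Mural cells with *Higd1b*, for example, had lower levels of most members than those with *Myh11* alone, as given below. How far such a mix enters the steps was not tested. The 7 genes that made the ranking differ by construction, with median log2 differences from 2.57 to 4.24. In fibroblasts of the whole-cell libraries, *Klf4* was at 276, 157, 68.8 and 65.2 CPM in the bottom parts of WT replicates 1 and 2 and Tubb3-/- replicates 1 and 2. In their top parts it was at 859, 638, 601 and 657 CPM. All top parts lay above all bottom parts, by a log2 difference of 2.50 (SE 0.20, adjusted p = 1.02e-09). In mural cells of the same libraries *Klf4* was at 0 to 145 CPM in the bottom and 484 to 633 CPM in the top parts, a log2 difference of 2.55 (SE 0.37, adjusted p = 0.000204). The mural parts were small, with 0 to 10 *Klf4* UMIs in a bottom part and 30 to 62 in a top part. The mural cell-enriched libraries, with 57 to 263 *Klf4* UMIs in a bottom part of mural cells, gave a log2 difference of 1.88 (SE 0.18, adjusted p = 2.43e-06) in mural cells and 2.28 (SE 0.21, adjusted p = 1.31e-06) in fibroblasts.

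In endothelial and immune cells the difference was near 1. Endothelial cells of the whole-cell libraries kept *Klf4* at 490, 579, 538 and 595 CPM in their bottom parts and had 879, 1194, 1099 and 1145 CPM in their top parts, in the order of mice used above. The log2 difference was 1.06 (SE 0.11, adjusted p = 2.36e-07), and 1.09 (SE 0.19, adjusted p = 2.71e-06) in the mural cell-enriched libraries. In immune cells *Klf4* was at 126 to 160.3 CPM in the bottom and 230.3 to 309 CPM in the top parts, a log2 difference of 0.96 (SE 0.12, adjusted p = 9.35e-07). In the whole-cell libraries every bottom part of endothelial cells held more *Klf4* than any bottom part of the other lineages. *Klf2* differed by 2.17 in mural cells (SE 0.22, adjusted p = 3.32e-06) and 2.50 in fibroblasts (SE 0.18, adjusted p = 5.98e-11), by 0.83 in endothelial cells (SE 0.11, adjusted p = 9.48e-06) and by 0.46 in immune cells (SE 0.10, adjusted p = 0.00170). *Klf6* differed by 1.58 in mural cells (SE 0.23, adjusted p = 0.000231) and 1.59 in fibroblasts (SE 0.17, adjusted p = 1.16e-07), by 1.02 in endothelial cells (SE 0.14, adjusted p = 1.62e-05), by 0.83 in immune cells (SE 0.10, adjusted p = 1.08e-06) and by 1.98 in epithelial cells (SE 0.34, adjusted p = 0.00753). *Klf4* and *Klf2* were too low in the epithelial parts to be tested.

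**Figure D2:**
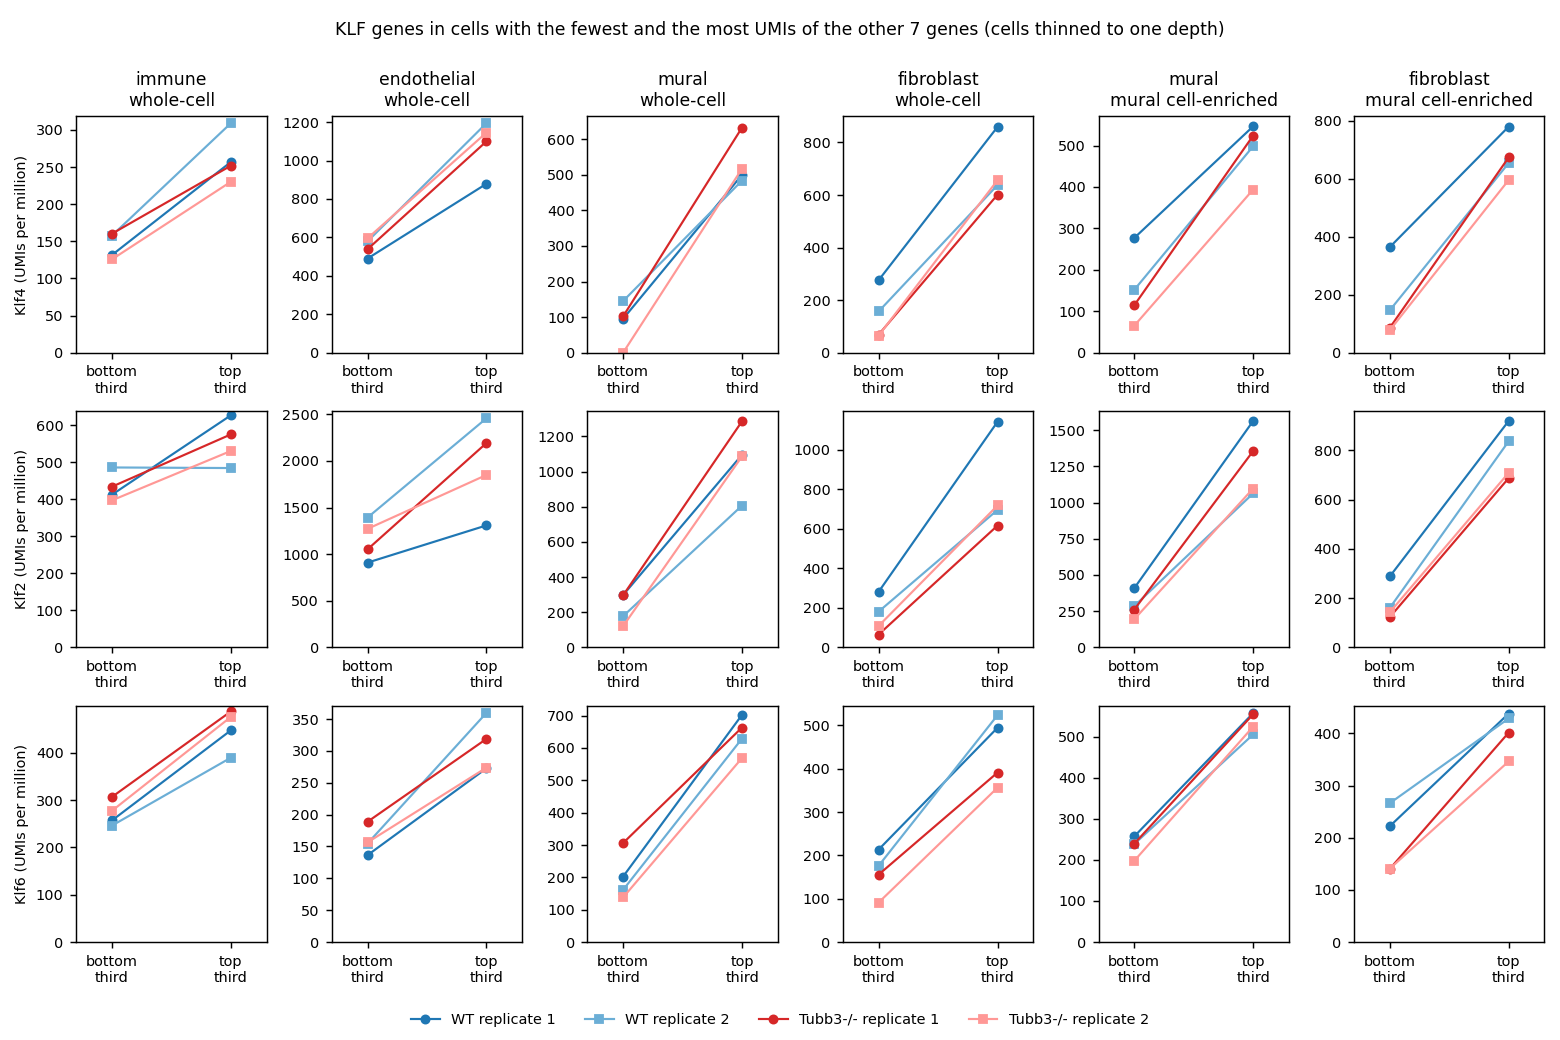
CPM of *Klf4*, *Klf2* and *Klf6* (rows, y axis linear from 0) in the bottom and the top of 3 equal parts of the cells, ranked by the summed UMIs of the other 7 genes after thinning to 2000 UMIs per cell. Each line joins the parts of 1 mouse (blue WT, red Tubb3-/-). *Klf4* is higher in the top part in 4 of 4 mice in each panel, from a bottom level of 490 to 595 CPM in whole-cell endothelial cells and of 65.2 to 276 CPM in whole-cell fibroblasts.

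All 3 KLF genes were called higher in the top part in immune, endothelial, mural and fibroblast cells of the whole-cell libraries, where 14.6%, 9.36%, 5.76% and 7.34% of all genes tested were called higher. In epithelial cells the 1 KLF gene tested was called (3.36% of all genes). In the mural cell-enriched libraries 2 of 3 were called in endothelial cells (10.9% of all genes), all 3 in mural cells (6.96%) and in fibroblasts (6.25%), and the 1 tested in epithelial cells was not (2.28%). There *Klf6* missed in endothelial cells (log2 difference 0.58, SE 0.27, adjusted p = 0.13) and in epithelial cells (0.94, SE 0.40, adjusted p = 0.414). The other immediate-early genes rose with the ranking as well, namely 18 of 18 tested in immune cells, 14 of 14 in endothelial, 13 of 13 in mural and 15 of 16 in fibroblast cells. *Zfp36*, which speeds the decay of inflammatory mRNAs, was among the 2 largest in endothelial (2.99), mural (2.21) and fibroblast cells (2.80), all log2 differences. Of the AP-1 and CREB/ATF genes that are not members, 4 of 5 tested rose in immune cells, 4 of 4 in endothelial, 2 of 2 in mural and 3 of 4 in fibroblast cells. Of the heat shock genes 7 of 12 rose in immune cells, 9 of 12 in endothelial, 2 of 12 in mural and 7 of 12 in fibroblast cells. Other KLF genes joined in part, with 4 of 6 tested in immune cells, 1 of 6 in endothelial, 1 of 3 in mural and 2 of 5 in fibroblast cells. *Klf9*, a glucocorticoid-responsive KLF gene, was the 1 called in endothelial (0.72, SE 0.14, adjusted p = 0.000814) and mural cells (0.80, SE 0.20, adjusted p = 0.0157). Smooth muscle genes gave 4 of 5 higher in the top part of enriched mural cells, by 0.68 for *Myocd* (SE 0.084, adjusted p = 3.91e-05) and 0.58 for *Smtn* (SE 0.093, adjusted p = 0.000497). *S1pr1* was lower in the top part of immune cells (-1.15, SE 0.17, adjusted p = 1.70e-05), and *Thbd* was slightly higher in that of endothelial cells (0.34, SE 0.11, adjusted p = 0.0390).

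The size of the step was then compared between lineages in 1 model of the whole-cell libraries, a comparison added after the steps had been seen. The parts were cut within each lineage, so the steps span unlike ranges of the sum of the 7 genes. In WT replicate 1 the mean sum per cell went from 1.95 to 12.1 UMIs in immune and 2.11 to 26.7 in endothelial cells. It went from 6.55 to 49.4 in mural cells and 7.39 to 43.9 in fibroblasts. For *Klf4* the step was larger in mural than in endothelial cells by 1.66 on the log2 scale (SE 0.37, adjusted p = 0.0174) and larger in fibroblasts than in endothelial cells by 1.49 (SE 0.26, adjusted p = 0.00120). Against immune cells it was larger by 1.67 in mural cells (SE 0.38, adjusted p = 0.00900) and by 1.50 in fibroblasts (SE 0.27, adjusted p = 0.000281). The differences of endothelial minus immune cells (0.01, SE 0.25, adjusted p = 0.993) and of fibroblasts minus mural cells (-0.17, SE 0.42, adjusted p = 0.987) did not pass. *Klf2* was called in the same 4 comparisons, from 1.50 for mural minus endothelial cells (SE 0.25, adjusted p = 0.000669) to 2.01 for fibroblasts minus immune cells (SE 0.22, adjusted p = 3.18e-08). *Klf6* was called only for fibroblasts minus immune cells (0.72, SE 0.20, adjusted p = 0.0298). Of the 3 KLF genes, 2 were called for mural minus immune (1.96% of all genes), 3 for fibroblast minus immune (4.21%), 2 for mural minus endothelial (0.625%), 2 for fibroblast minus endothelial (0.285%), and 0 for endothelial minus immune (7.32%) and fibroblast minus mural cells (0.244%). The latter 2 gave 0 at an unadjusted p under 0.05 and 0 with DESeq2. The *Klf4* difference of mural minus endothelial cells was no longer called without WT replicate 1 (1.64, adjusted p = 0.104), Tubb3-/- replicate 1 (1.67, adjusted p = 0.0825) or Tubb3-/- replicate 2 (1.29, adjusted p = 0.0920), and that of mural minus immune cells without Tubb3-/- replicate 1 (1.58, adjusted p = 0.0673). With the cells cut into 2 equal parts in place of 3, the *Klf4* differences were smaller and not called for fibroblasts minus endothelial (0.82, adjusted p = 0.0967), mural minus endothelial (0.73, adjusted p = 0.409) and mural minus immune cells (0.81, adjusted p = 0.195). In cells thinned to 4000 UMIs, mural minus endothelial (1.41, adjusted p = 0.0719) and mural minus immune cells (1.07, adjusted p = 0.137) were not called either. The *Klf6* difference was no longer called without any 1 of the 4 mice (adjusted p from 0.0699 to 0.145).

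The 10 members were compared between genotypes in each lineage. In fibroblasts *Klf4* was at 620.3 and 397 CPM in WT and 346 and 297 CPM in Tubb3-/- mice in the whole-cell libraries. It was at 609 and 425 CPM against 375 and 323 CPM in the mural cell-enriched libraries. Both Tubb3-/- mice lay below both WT mice in each kind, with WT replicate 1 standing above WT replicate 2. The log2 differences of Tubb3-/- minus WT were -0.65 (SE 0.25, adjusted p = 0.341) and -0.59 (SE 0.22, adjusted p = 0.244), and neither passed the test. *Egr1* had values closer together within a genotype, at 1797 and 1571 CPM in WT against 951 and 937 CPM in Tubb3-/- fibroblasts of the whole-cell libraries (log2 difference -0.82, SE 0.17, adjusted p = 0.145). *Fosb* had the largest difference of the members, 1242 and 1061 against 619 and 522 CPM (-1.0, SE 0.19, adjusted p = 0.135). In the enriched libraries *Fosb* was at 1097 and 984 against 631 and 555 CPM (-0.83, SE 0.14, adjusted p = 0.0884). *Jun* was at 2343 and 2309 against 1597 and 1599.6 CPM in the whole-cell fibroblasts (-0.53, SE 0.16, adjusted p = 0.244). *Klf2* was at 648 and 537 against 381 and 369.9 CPM (-0.64, SE 0.17, adjusted p = 0.200), and *Klf6* at 332 and 344 against 271 and 248 CPM (-0.36, SE 0.14, adjusted p = 0.347).

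In fibroblasts, both Tubb3-/- mice lay below both WT mice for 10 of 10 members in the whole-cell libraries, against 23% of all genes, and for 10 of 10 in the enriched libraries, against 22.7%. Both kinds came from the same 4 mice, so they are not independent. The median log2 difference of the members was -0.64 and -0.53, while that of all genes tested was -0.01 in both. No member was called by edgeR, where 0% of all genes were called in either kind. All 10 had an unadjusted p under 0.05 in each kind, as had 1721 of 12869 and 2631 of 14505 genes tested. DESeq2 called 4 and 6 of the members, and 163 of 12619 and 505 of 13661 genes. Without WT replicate 2, 1 member was called in the whole-cell and 10 in the enriched fibroblasts, and without WT replicate 1, 6 in the enriched fibroblasts. The sample left alone in its group was assumed there to vary like the others. With the replicate number as a block, which here also separates the mice by their *Xist* level although the labels pair no mice, edgeR called 8 members in the whole-cell and 10 in the enriched fibroblasts. The shares of all genes called with this block, or without a mouse, are not given here. Of the 18 other immediate-early genes, 17 and 18 had negative differences (medians -0.50 and -0.44), as had 6 of the 7 AP-1 and CREB/ATF genes in each kind (medians -0.42 and -0.48), and 0 were called. Of the heat shock genes 4 and 8 of 12 were negative, with medians of 0.04 and -0.03 and 0 called. Tubb3-/- fibroblasts had more UMIs per cell, a median of 18674 to 20063.5 against 14576.5 and 15160.5 in the whole-cell and 18386 to 19293.5 against 14446 and 17249 in the enriched libraries. The 5 mural markers summed to 788 and 610 CPM in Tubb3-/- against 432 and 433 CPM in WT fibroblasts of the enriched libraries, with *Higd1b* and *Myh11* at 0 by the gate. Most of this was *Acta2*, an actin that activated fibroblasts also express, at 734 and 561 against 385 and 389 CPM, and the other 4 summed to 43.9 to 54.3 CPM. Their part and that of depth in the result were not tested.

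In mural cells most members again had lower values in Tubb3-/- mice, and no difference passed. *Klf4* was at 467 and 363 CPM in WT and 314 and 236 CPM in Tubb3-/- mural cells of the enriched libraries (log2 difference -0.61, SE 0.22, adjusted p = 0.363), and at 352 and 321 against 319.7 and 212 CPM in the whole-cell libraries (-0.34, SE 0.25, adjusted p = 0.897). The WT and Tubb3-/- values did not overlap in either kind, but nearly met in the latter. *Klf2* did overlap, at 973 and 708 against 752 and 622 CPM in the enriched libraries (-0.30, SE 0.23, adjusted p = 0.674). *Fos* was at 4887 and 4210 against 3844 and 3541 CPM (-0.31, SE 0.21, adjusted p = 0.656), and *Egr1* at 2234 and 1931 against 1478 and 1393 CPM (-0.55, SE 0.18, adjusted p = 0.318). Both Tubb3-/- mice lay below both WT mice for 8 of 10 members in the enriched (19.8% of all genes) and 8 of 10 in the whole-cell libraries (16%). The members' median was -0.40 and -0.39. No member was called by edgeR in either kind, where 0% of all genes were called. An unadjusted p under 0.05 was found for 6 and 3 members, against 1742 of 14989 and 648 of 9823 genes tested. DESeq2 called 3 in the enriched (233 of 13536 genes) and 0 in the whole-cell libraries (15 of 8870 genes). Without WT replicate 2, edgeR called 7 members in the enriched mural cells. In mural cells with *Myh11* but no *Higd1b*, 8 of 10 members had both Tubb3-/- mice below both WT mice (20.1% of all genes). There edgeR called 0 members, while 0.693% of all genes were called. An unadjusted p under 0.05 was found for 6 members (1976 of 14729 genes), and DESeq2 called 3 (272 of 13586 genes). With the replicate block edgeR called 3 members in the enriched mural cells and 7 in those with *Myh11* but no *Higd1b*. For mural cells too, the shares of all genes called with this block, or without a mouse, are not given here. The 5 fibroblast markers summed to 3015 and 2600.2 CPM in Tubb3-/- against 1834 and 1921 CPM in WT mural cells of the enriched libraries, with *Pdgfra* at 0 by the gate. The difference lay in the collagen gene *Col1a1*, at 1888 and 1606 against 901 and 871 CPM, since the other 4 overlapped at 1127 and 994 against 933 and 1051 CPM. Median UMIs per cell were 12002 and 11668 against 10381 and 9572. Their part in the result was not tested.

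In immune and endothelial cells of the whole-cell libraries the *Klf4* and *Klf2* differences were not called. In immune cells *Klf4* was at 251 and 317 CPM in WT and 273 and 226 CPM in Tubb3-/- mice (log2 difference -0.17, SE 0.15, adjusted p = 0.790). *Fos* was at 599.9 and 779 against 816 and 813 CPM, higher in both Tubb3-/- mice (0.26, SE 0.13, adjusted p = 0.664). There both Tubb3-/- mice lay below both WT mice for 2 members (21.5% of all genes) and above both for 3, *Fos*, *Junb* and *Atf3*. The share of all genes above is not given here, and the members' median was 0.02. In endothelial cells the *Klf4* difference was -0.06 (SE 0.18, adjusted p = 0.938) and that of *Klf2* 0.12 (SE 0.23, adjusted p = 0.878), each with Tubb3-/- values between the 2 WT values. Both Tubb3-/- mice lay below both WT mice for 4 members there, *Fosb*, *Junb*, *Egr1* and *Atf3* (23.6% of all genes). The endothelial cells of the enriched libraries, 74 to 142 per mouse, were not tested. *Klf4* overlapped there at 636 and 896 CPM in WT and 672 and 755 CPM in Tubb3-/- mice, while *Fos*, at 1792 and 1782 against 1049 and 1273 CPM, and *Egr1*, at 1030.2 and 1053 against 592 and 718 CPM, did not. In epithelial cells all 10 differences were negative, 8 without overlap (15.7% of all genes), and *Klf4* was at 104 and 134 against 94.9 and 62.3 CPM (-0.59, SE 0.26, adjusted p = 0.992). Of the 6 immune markers, *Lyz2*, which alveolar type 2 cells also express, was at 5118 and 14301.7 CPM in WT and 2649 and 3689 CPM in Tubb3-/- epithelial cells, and the other 5 summed to 58.4 to 135 CPM. EdgeR called 0 members in these 3 lineages, against 0%, 0.00798% and 0.01% of all genes, and DESeq2 called 0. An unadjusted p under 0.05 was found for 0, 2 and 3 members, against 1150 of 14217, 1516 of 12529 and 474 of 9974 genes. The difference between genotypes was not shown to differ between lineages. The interaction of genotype and lineage in the whole-cell libraries called 0 members (edgeR, 0.00632% of all genes). At an unadjusted p under 0.05 the interaction gave 4 members and 1140 of 15835 genes. Its adjusted p was 0.885 for *Klf4* and 0.603 for *Fosb*, the lowest of the 10.

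**Figure D3:**
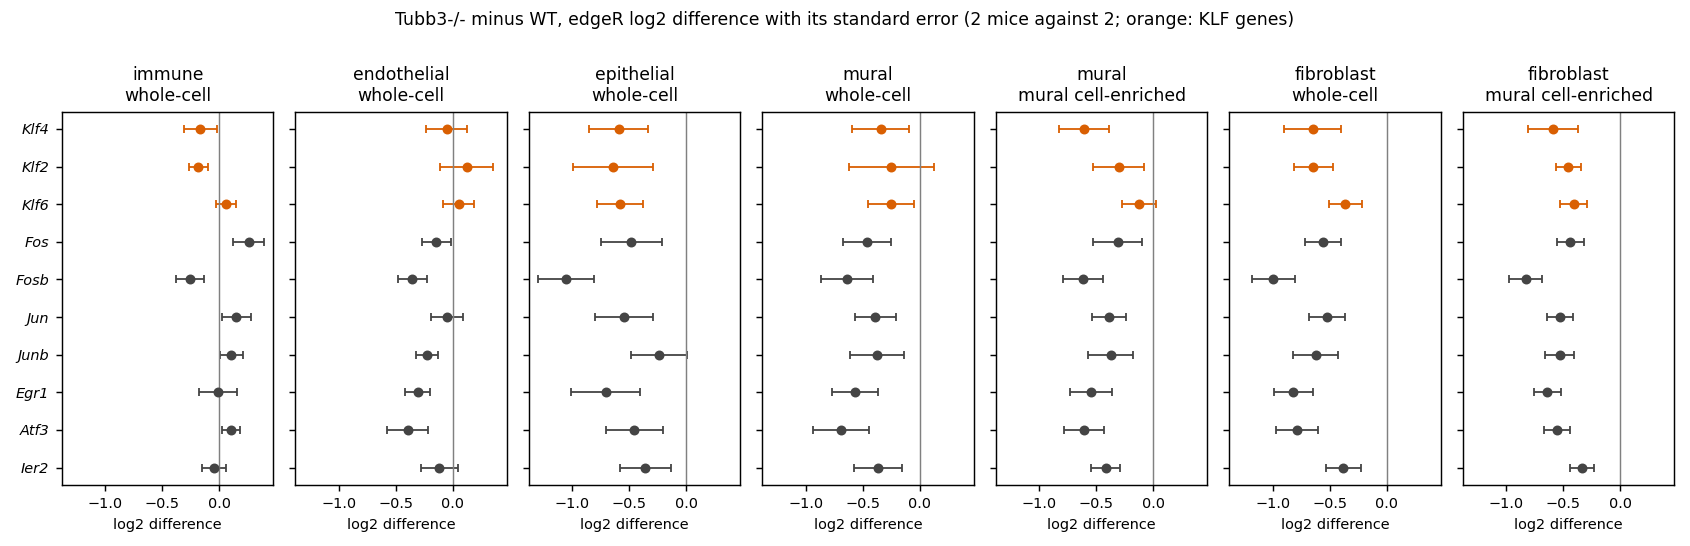
Log2 difference of Tubb3-/- minus WT (x axis) with its standard error for the 10 genes (y axis) in 7 sums of lineage and library kind, 2 mice against 2. KLF genes are orange and the vertical line marks no difference. All 10 points lie left of the line in the epithelial, mural and fibroblast panels, with medians from -0.39 to -0.64, and on both sides of it in immune and endothelial cells, and none passes the adjusted test.

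*Klf4* was also set against the other 9 members in the same sum, as log2 of its CPM minus the mean log2 of the 9. In fibroblasts this relative level was -0.93 and -1.44 in WT and -1.08 and -1.26 in Tubb3-/- mice in the whole-cell libraries, a difference of 0.02, and the difference was -0.04 in the enriched libraries. The Tubb3-/- values lay between the WT values in both. In mural cells it differed by 0.06 in the whole-cell and by -0.20 in the enriched libraries, where WT was at -1.56 and -1.73 and Tubb3-/- at -1.69 and -1.99. In immune cells it differed by -0.19, and in endothelial cells by 0.12 in the whole-cell and 0.34 in the enriched libraries. With 2 mice against 2 the exact two-sided permutation test cannot give a p under 0.33, and over these the p ranged from 0.33 to 1. Across lineages the relative level was -0.02 ± 0.13 (SD, n = 4) in endothelial, -0.44 ± 0.16 (SD, n = 4) in immune, -1.18 ± 0.22 (SD, n = 4) in fibroblast, -1.81 ± 0.15 (SD, n = 4) in mural and -2.20 ± 0.25 (SD, n = 4) in epithelial cells.

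Cells were then sorted into 5 fixed bins of the summed UMIs of the 7 genes, the same in every library (0 to 4, 5 to 9, 10 to 19, 20 to 29, and 30 or more of 2000 UMIs), a step added after the data had been seen. In enriched fibroblasts *Klf4* went from 48.6 to 96.5 CPM in the lowest bin to 658 to 971 CPM in the highest, and in enriched mural cells from 46.9 to 126 CPM to 410.0 to 547 CPM. In whole-cell endothelial cells it went from 500.0 to 592 CPM to 1017 to 1477 CPM. The highest bin held 31.5% and 33.0% of WT but 12% and 14.9% of Tubb3-/- fibroblasts of the enriched libraries, and the lowest held 7.81% and 9.73% against 18.2% and 20.2%. In enriched mural cells the highest bin held 48.8% and 39.6% of WT and 30.5% and 26.6% of Tubb3-/- cells.

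**Figure D4:**
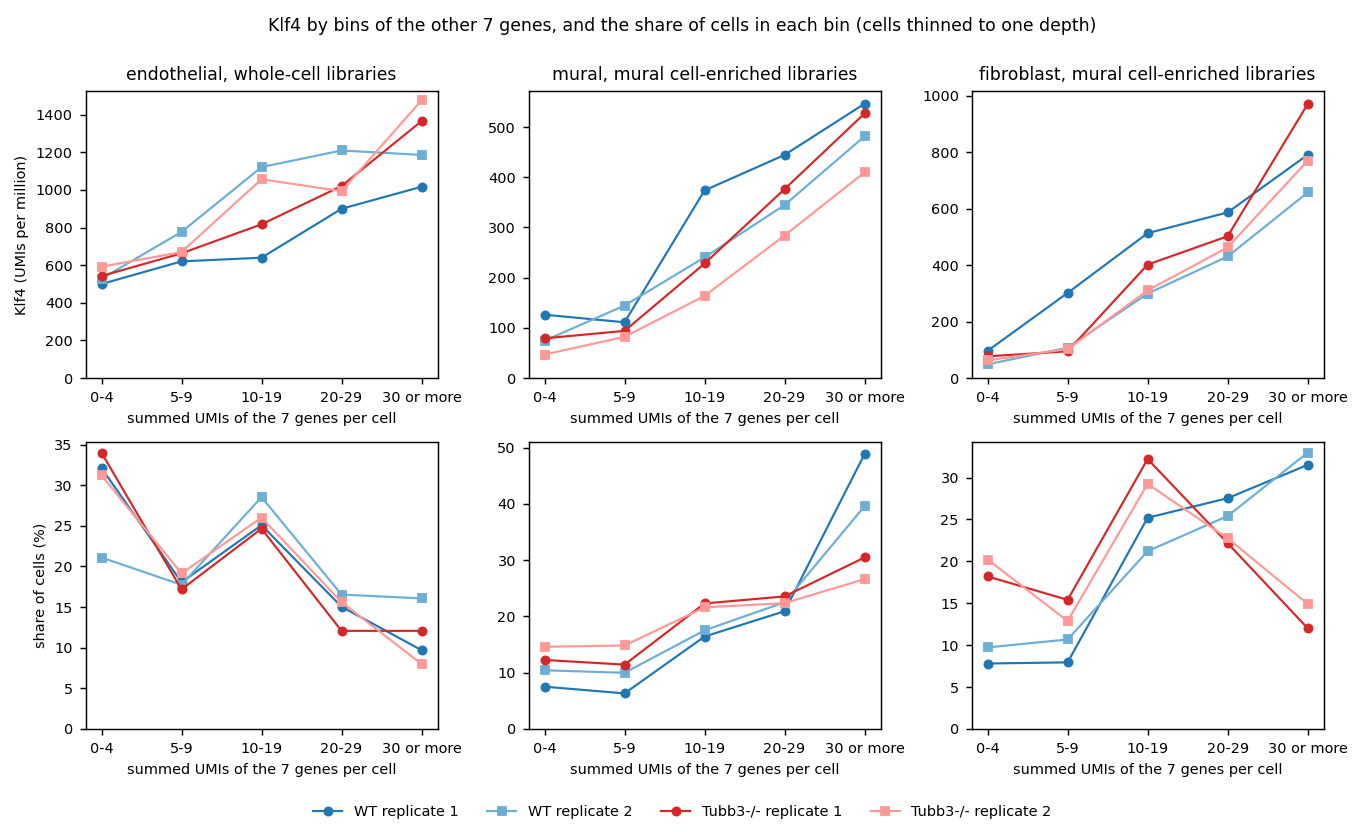
*Klf4* CPM (top row) and share of cells in percent (bottom row) by 5 bins of the summed UMIs of the 7 other genes per cell thinned to 2000 UMIs (x axis), in whole-cell endothelial cells and in mural cells and fibroblasts of the enriched libraries. Each line is 1 mouse (blue WT, red Tubb3-/-). *Klf4* is higher in the highest than in the lowest bin in each mouse, and the highest bin holds 31.5% and 33.0% of WT but 12% and 14.9% of Tubb3-/- fibroblasts.

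When the bins of each mouse were weighted by the share of the cells of all 4 mice, the *Klf4* difference in fibroblasts went from -0.42 unweighted to 0.02 in the enriched libraries and from -0.57 to -0.11 in the whole-cell libraries. After weighting, the enriched fibroblasts had 508 and 352 CPM in WT and 469.6 and 389 CPM in Tubb3-/- mice, and the Tubb3-/- values lay between the WT values. In mural cells it went from -0.26 to 0.03 in the whole-cell and from -0.50 to -0.27 in the enriched libraries, where 397 and 322 CPM in WT and 339 and 258 CPM in Tubb3-/- mice then overlapped. *Klf2* in enriched fibroblasts went from -0.36 to 0.04, and *Klf6* from -0.41 to -0.18, with 307 and 325 CPM in WT still above 300.1 and 259 CPM in Tubb3-/- mice. The exact two-sided permutation p was at least 0.33, the smallest possible, before and after weighting. The bins are ranges and the highest has no upper limit, so the weighting does not make the sums equal within a bin. How far the sums differed there was not tested.

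The step of *Klf4* between the bottom and the top part was also compared between genotypes, after the bottom parts had been seen. In enriched fibroblasts the bottom parts were at 364 and 146 CPM in WT and 86.0 and 77.6 CPM in Tubb3-/- mice, and the top parts at 779.8 and 654 against 674 and 596 CPM. The bottom parts of the genotypes did not overlap and the top parts did. The step was larger in Tubb3-/- mice by 1.39 on the log2 scale (SE 0.27, adjusted p = 0.0199), 1 of 3 KLF genes called where 0.182% of all genes were. Without WT replicate 1, whose bottom part was the highest, it was 0.79 (adjusted p = 0.921), and DESeq2 gave 1.36 (adjusted p = 1.00). The parts are cut within each library, so equal parts do not mean equal sums of the 7 genes. In whole-cell fibroblasts the difference was 1.39 (SE 0.35, adjusted p = 0.0862), in enriched mural cells 1.06 (SE 0.24, adjusted p = 0.477) and in whole-cell mural cells 1.18 (SE 0.79, adjusted p = 0.988), each with 0 of 3 KLF genes called where 0.296%, 0.0104% and 0% of all genes were. At an unadjusted p under 0.05 these gave 2, 2 and 0 of the 3, against 286 of 4735, 472 of 9650 and 86 of 1807 genes, and DESeq2 called 0. Without WT replicate 2, *Klf4* was called in the enriched mural cells (1.36, adjusted p = 4.63e-05).

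Between the library kinds, which share the mice but differ in sorting and pool, the members differed little. In fibroblasts *Klf4* had 433 ± 124 CPM (SD, n = 4) in the enriched and 415 ± 143 CPM (SD, n = 4) in the whole-cell libraries, a log2 difference of 0.07 (SE 0.04, adjusted p = 0.450). In mural cells it had 345 ± 96.9 CPM (SD, n = 4) and 301 ± 61.3 CPM (SD, n = 4), a difference of 0.17 (SE 0.084, adjusted p = 0.456). The largest difference of the members was that of *Klf2* in mural cells (0.27, SE 0.10, adjusted p = 0.283). EdgeR called 0 of 10 members in mural cells and 0 of 10 in fibroblasts, where 2.04% and 2.95% of all genes were called, and DESeq2 called 0. At an unadjusted p under 0.05 there were 4 and 1 members, against 1582 of 12825 and 1947 of 13749 genes. Genotype by library kind called 0 members in mural (0.0219% of all genes) and 0 in fibroblast cells (0.00689%), and DESeq2 called 0. At an unadjusted p under 0.05 it gave 0 and 1 members, against 603 of 13724 and 1020 of 14510 genes.

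Within the mural cells of the enriched libraries, those with *Higd1b*, a pericyte gene, were set against those with *Myh11* alone, a smooth muscle gene. Cells with *Higd1b* and no *Myh11* were under 20 in every library, so the 523 cells with *Higd1b*, 92 to 149 per library, mostly carried both and are no clean pericyte set. This comparison was added after the gates had been counted. *Atf3* was at 753, 624, 333 and 393 CPM in WT replicates 1 and 2 and Tubb3-/- replicates 1 and 2 in these cells, against 1256, 1056, 793 and 764 CPM in the *Myh11*-only cells, lower in 4 of 4 mice (log2 difference -1.01, SE 0.11, adjusted p = 4.41e-05). *Klf6* (-0.75, SE 0.11, adjusted p = 0.000383) and *Fos* (-0.72, SE 0.11, adjusted p = 0.000522) followed. *Klf4* was at 488, 275, 178 and 216 CPM against 466, 376, 328 and 238 CPM, higher in WT replicate 1 and lower in the other 3 mice (-0.43, SE 0.14, adjusted p = 0.0353). In all, 7 of 10 members were lower, against 17.6% of all genes. Without Tubb3-/- replicate 1 or Tubb3-/- replicate 2 the count was 4 and 3, and the shares of all genes then are not given here. The 5 smooth muscle genes tested were lower too, led by *Cnn1* (-1.84, adjusted p = 5.28e-06), as were 11 of 18 other immediate-early genes and 5 of 12 heat shock genes. Between genotypes, 9 of 10 members had both Tubb3-/- mice below both WT mice in these cells (17.8% of all genes), with *Klf4* at -0.96 (SE 0.31, adjusted p = 0.887) and *Klf6* above instead (0.21, SE 0.19, adjusted p = 0.918). EdgeR called 0 members and 0% of all genes, with 9 members at an unadjusted p under 0.05 (553 of 10136 genes), and DESeq2 called 0 members. Counts called without 1 mouse stand further below, and their shares of all genes are not given here.

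Across the 39 sums of library and lineage with at least 20 cells, the genes with the most similar pattern to *Klf4* (Pearson correlation of log2(CPM + 1), genes of at least 10 CPM, members and gate genes left out) were *Rassf1* (0.92), *Nav1* (0.89), *Elf2* (0.89), *Mef2a* (0.88) and *Skap2* (0.88). The sums share mice, libraries and lineages, so these are descriptions. *Nav1* was at 436 CPM in whole-cell endothelial and 6.05 CPM in epithelial cells, and *Mef2a*, which encodes a MEF2 factor, at 417 and 95 CPM. Among the members the correlation with *Klf4* was 0.89 for *Klf2*, 0.77 for *Ier2*, 0.64 for *Junb*, 0.49 for *Jun*, 0.36 for *Egr1*, 0.32 for *Fosb*, 0.21 for *Fos*, 0.16 for *Atf3* and -0.47 for *Klf6*. *Klf4* was thus nearer to *Klf2* than to the AP-1 genes between sums.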

How the data were processed

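Gene expression libraries (10x Genomics) of 4 mice were made as 2 tagged pools. The authors deposited, per library, counts of UMIs per gene and cell from Cell Ranger 7.1.0 (mm10 with an added *Cre* gene), with no normalization or correction for free RNA, and tag counts, which were set aside. The study's limits on cells were applied (200 to 7500 genes, no more than 15% mitochondrial UMIs). Doublets were not removed, except in an alternative (Scrublet, scanpy 1.11.5), which marked 632 cells, 89 of them in 1 lineage. UMIs were summed per library and lineage (at least 20 cells). Sums held between 402828 and 19340545 UMIs. The test was the quasi-likelihood F test of edgeR 4.0.16 (R 4.3.3, TMM factors, filterByExpr, Benjamini-Hochberg adjustment over all genes tested, threshold 0.05), with mouse as a block where parts, lineages or kinds of the same mice were compared. For genotypes the 2 mice of each were compared without a block. The test was checked on simulated counts. Alternatives were DESeq2 1.42.0, RLE factors, no filter on low counts, 2 gate UMIs, 10% mitochondrial UMIs, 4000 UMIs, 2 parts in place of 3, and leaving out each mouse. The genes and lists were chosen with earlier results of these data known. The genes named are the 10 members, the 5 genes most like *Klf4* and, from each list, called genes among the 2 with the largest change in each direction (at least 10 CPM). P-values for genotypes compared without a block measure the spread between these 4 mice. Those with mouse as a block measure how far differences within a mouse vary across these 4 mice.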

Additional observations from a re-analysis of the deposited data

Results flagged for a closer look

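In epithelial cells of the whole-cell libraries, WT replicate 2 stood apart from the other 3 mice for *Klf2* (197 CPM, against 94.2 to 95.9 CPM) and for *Junb* (736 CPM, against 532 to 562 CPM). These were 2 of 90 groups of 4 mice looked at, and chance alone marks about 1 in 20.

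The step of a KLF gene between cells with few and with many UMIs of the other 7 genes differed between lineages of the whole-cell libraries by a test of the difference itself. For mural minus immune cells the log2 difference was 1.67 for *Klf4* and 1.79 for *Klf2*. For fibroblasts minus immune cells it was 1.50 for *Klf4*, 2.01 for *Klf2* and 0.72 for *Klf6*. For mural minus endothelial cells it was 1.66 for *Klf4* and 1.50 for *Klf2*, and for fibroblasts minus endothelial cells 1.49 for *Klf4* and 1.72 for *Klf2*. The *Klf4* differences of mural minus immune, mural minus endothelial and fibroblasts minus endothelial cells were not called under some alternatives, as given above. That of *Klf6* was not called when any 1 mouse was left out. The bottom parts of endothelial cells held 490 to 595 CPM of *Klf4*, those of mural cells 145 CPM or less. The parts were cut within each lineage, so the steps span unlike ranges of the sum of the 7 genes.

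The step of *Klf4* in fibroblasts of the mural cell-enriched libraries differed between genotypes by 1.39 on the log2 scale, larger in Tubb3-/- mice (adjusted p = 0.0199, edgeR). DESeq2 gave 1.36 and did not call it, and without WT replicate 1 the difference was 0.79. The parts were cut within each library. Bottom-part cells held on average 9.47 and 7.82 UMIs of the ranking genes in WT and 4.44 and 4.14 in Tubb3-/- mice. In the lowest of the fixed bins *Klf4* was at 96.5 and 48.6 CPM in WT and 76.9 and 62.5 CPM in Tubb3-/- mice. How far the unlike bottom parts account for the difference was not tested.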

How the results depend on the processing

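Of 2566 values of single genes under the alternatives, 63 changed sign, and 0 of these had passed the test. The members called in the 5 comparisons of lineages stayed within 1.5 times under every alternative run. The counts of members called between genotypes moved from 0, and the shares of all genes called in these alternatives, DESeq2 aside, are not given here. Without a filter on low counts, 1 was called in endothelial, 1 in epithelial, 6 in whole-cell fibroblast, 4 in enriched mural, 5 in enriched fibroblast, 5 in *Myh11*-only and 4 in *Higd1b*-positive cells, 2 (mural) and 1 (fibroblast) between library kinds and 5 for genotype by lineage. DESeq2 called 4 in whole-cell fibroblasts, 3 in enriched mural, 6 in enriched fibroblast and 3 in *Myh11*-only cells. Leaving out each mouse gave 0 to 1 in whole-cell fibroblasts, 0 to 7 in enriched mural, 0 to 10 in enriched fibroblast, 0 to 3 in *Myh11*-only and 0 to 3 in *Higd1b*-positive cells, and 3 to 9 for *Higd1b*-positive against *Myh11*-only cells.

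Mice of the 2 genotypes share replicate numbers, but nothing in the labels pairs them. Deviations of mice with the same number correlated from -0.01 to 0.50 across the 12 sums. With a replicate block, edgeR called 8 members in whole-cell fibroblasts, 3 in enriched mural, 10 in enriched fibroblast, 7 in *Myh11*-only and 3 in *Higd1b*-positive cells, and it changed no other count of members.

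For *Klf4*, cutting the cells into 2 parts in place of 3 lowered the step differences to 0.81 (mural minus immune, adjusted p = 0.195), 0.73 (mural minus endothelial, 0.409) and 0.82 (fibroblast minus endothelial, 0.0967), where the parts lie nearer to each other by construction. Thinning to 4000 UMIs gave 1.07 for mural minus immune (adjusted p = 0.137) and 1.41 for mural minus endothelial cells (0.0719), leaving out each mouse 1.42 to 2.04 and 1.29 to 1.98. By genotype, the step difference in enriched fibroblasts was 1.36 with DESeq2, 1.41 without Scrublet doublets (adjusted p = 0.0703), 1.02 at 4000 UMIs (0.340) and 0.79 to 1.87 without each mouse. It passed in whole-cell fibroblasts at 4000 UMIs (1.49, adjusted p = 0.0327) and in enriched mural cells without a filter (1.08, adjusted p = 0.0226), and leaving out each mouse gave 0.64 to 1.36 there. The cause of these changes was not tested. The whole-cell mural parts, with 0 to 10 *Klf4* UMIs at the bottom, limit the steps there.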

Other observations

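Cells that matched several lineages, left out above, held 305 to 568 CPM of *Klf4* in the mural cell-enriched libraries, with 568 and 429 CPM in WT and 359 and 305 CPM in Tubb3-/- mice. *Egr1* was there at 1704 and 1556 against 1054 and 1115 CPM, and *Fosb* at 1089 and 979 against 652 and 589 CPM. In the whole-cell libraries the same class had *Klf4* at 405 and 465 CPM in WT and 400.1 and 385 CPM in Tubb3-/- mice. Of the 632 cells that Scrublet marked as doublets, 536 were in this class. These values were not tested.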
